A study of Mus musculus with 9 samples.

Results

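The normal cerebellum of CD1-nude mice was described from 3 RNA-seq libraries, which were chosen because their source name and tissue label say cerebellum. They are 3 of the 9 libraries of a study of a mouse WNT-medulloblastoma model, and no tumour library enters any value below. CD1-nude mice are an outbred stock that lacks a thymus and therefore mature T cells. The design text calls the 3 libraries biological replicates, and the labels give no age, no sex and no statement of whether the animals carried an implant. One protocol text speaks of control cortex where the other labels say cerebellum, so the tissue was checked against marker genes of both regions. The libraries were made from total RNA of microdissected, frozen tissue. In bulk tissue, fewer cells of a type and less RNA per cell cannot be told apart.

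The cerebellar cortex is built from very many small granule neurons, whose parallel fibres excite the large Purkinje cells, the only output neurons of the cortex. Molecular layer interneurons and Golgi cells provide inhibition, unipolar brush cells amplify mossy fibre input to granule neurons, and Bergmann glia wrap the Purkinje cell dendrites and take up glutamate. Purkinje cells fall into parasagittal stripes that differ in zebrin II, the product of Aldoc, and zebrin-positive cells are commoner in the posterior lobules and the flocculonodular lobe.

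Levels of a gene in different libraries are given in CPM, the count scaled to a library total of 1000000. Levels of different genes are compared in CPM per kilobase of merged exons (CPM/kb), since longer transcripts yield more reads. A total of 18210 of 24444 gene symbols had at least 1 count, and 12995 had at least 1 CPM in all 3 libraries. Those 12995 genes had a median of 5.76, 6.19 and 5.94 CPM/kb in replicates 1, 2 and 3, which is the yardstick for the gene lists below. With 1 group and 3 libraries no test was run, since an exact paired sign permutation of 3 libraries cannot give a two-sided p under 0.25.

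All 5 marker genes given for the tissue were high. Gabra6 (chr11:42306437-42321072), which encodes the alpha6 subunit of the GABA-A receptor and marks mature granule neurons, was at 877, 817 and 529 CPM. Cbln3 (chr14:55878913-55884392), a secreted granule neuron protein that pairs with Cbln1, was at 1301, 1707 and 1047 CPM. Both granule neuron genes were lowest in replicate 3. Pcp2 (chr8:3623371-3625545), a modulator of G protein signalling in Purkinje cells and retinal bipolar cells, was at 203, 143 and 169 CPM. Itpr1 (chr6:108213096-108551109), the inositol trisphosphate receptor of Purkinje cell calcium stores, was at 5403, 6178 and 7254 CPM. Ppp1r17 (chr6:56017497-56032689), a Purkinje cell substrate of cGMP-dependent kinase, was the steadiest of the 5, at 258, 248 and 256 CPM. Per kilobase Itpr1 led with 342.7 ± 50.7 CPM/kb (SD, n = 3), followed by Gabra6 with 297.8 ± 74.7, Cbln3 with 277.7 ± 68.4, Ppp1r17 with 144.7 ± 3.04 and Pcp2 with 94.0 ± 16.6. The ranges of the first 3 genes overlapped, and those of Ppp1r17 and Pcp2 lay below them and apart from each other. Pcp2 shares 941 exonic bases, 51.5% of its merged exons, with Pet100 on the opposite strand, and the strand setting of the counting is not given in the sources used here, so its level is uncertain. The coordinates are from GENCODE vM21 on mm10.

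The stretches directly upstream of the annotated starts of Gabra6 and Pcp2 are shown because these genes mark the 2 principal neurons of the tissue. Each run is the 250 bases before the RefSeq start (GRCm38.p6), read 5′ to 3′ along the gene, which lies on the minus strand in both cases, at chr11:42321073-42321322 for Gabra6 and chr8:3625548-3625797 for Pcp2. Capitals mark matches on either strand to AGGTCA, the half-site of nuclear receptors such as RORA, and to CANNTG, the E-box of bHLH factors such as NEUROD1.
Gabra6: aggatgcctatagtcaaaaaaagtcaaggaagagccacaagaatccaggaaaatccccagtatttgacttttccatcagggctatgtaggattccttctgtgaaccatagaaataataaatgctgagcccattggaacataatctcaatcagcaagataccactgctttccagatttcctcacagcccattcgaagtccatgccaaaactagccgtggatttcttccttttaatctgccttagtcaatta
Pcp2: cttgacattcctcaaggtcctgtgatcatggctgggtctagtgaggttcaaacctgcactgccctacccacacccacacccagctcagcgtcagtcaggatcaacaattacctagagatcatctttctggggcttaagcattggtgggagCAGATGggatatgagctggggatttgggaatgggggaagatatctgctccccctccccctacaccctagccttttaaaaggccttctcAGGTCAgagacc
The Pcp2 start used is 1 of 4 listed for the gene. The Pcp2 window holds 1 AGGTCA and 1 CANNTG, and the Gabra6 window holds 0 of each, which says only that these letters are not in this window. Among 27018 promoter windows of the same length, 13.8% hold AGGTCA and 66.1% hold CANNTG. Rora itself, the nuclear receptor that Purkinje cells need to survive, was at 20.6, 37.6 and 28.2 CPM/kb. Neurod1, a bHLH factor of granule neurons, was at 149, 161 and 133 CPM/kb. Both factors thus lay well above the median gene in every library.

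The libraries held 24780263, 21761912 and 21154342 counts, so that 3 counts correspond to 0.121, 0.138 and 0.142 CPM. Protein-coding genes took 99.2% of counts. The biological coefficient of variation, the square root of edgeR's common dispersion, was 16.1%. Between any 2 libraries 294 to 404 of the 12995 genes differed by over 2-fold, and Pearson's r of log2 CPM across genes, which are not independent replicates, was 0.982 to 0.986. Replicate 2 held the highest value of 42.1% and replicate 1 the lowest value of 41.0% of the 12995 genes. With TMM scaling, which corrects for composition, these shares were 33.3% and 31.9%, so counts of list members by library are read against them. Such counts take in members with at least 1 CPM in 1 or more libraries and a count in all 3.

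Replicate 3 stood apart in several genes that were low in the other 2 libraries. Of 18 granule precursor and cell cycle genes, however, 10 were highest in replicate 2 and 8 in replicate 3. Over all 12995 genes these shares were 42.1% and 32.6%. With TMM scaling 9 were highest in replicate 2 and 9 in replicate 3, against 33.3% and 32.4% of all 12995 genes. Myc, which the study overexpressed in part of its tumours, was at 0.928, 1.65 and 32.4 CPM. Mki67, a proliferation marker, had 18, 8 and 212 counts, and Top2a, a topoisomerase of dividing cells, had 9, 12 and 276 counts. The replicate 3 values of all 3 genes lay far above the other 2 libraries. Ddx3y, a gene of the Y chromosome, had 0, 0 and 18 counts, and Eif2s3y, another, had 0, 0 and 11. Xist, the RNA of the inactive X, was nonetheless at 23.7, 62.4 and 26.8 CPM, so that replicate 3 held Y-linked counts beside Xist. H19, an imprinted RNA, was at 0.323, 1.06 and 11.3 CPM, and Cd74, a chaperone of antigen-presenting cells, was at 1.69, 5.24 and 15.2 CPM. These genes were named after their values had been seen. Whether replicate 3 holds RNA of other tissue or of another animal was not tested, nor was the part of these genes in its other differences, and values below are given per library so that each can be read without it.

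The most abundant transcripts included neuronal and glial genes of calcium release, vesicle fusion and energy supply. Itpr1 had the highest mean CPM. Sparcl1, an astrocyte-secreted matrix protein that promotes synapse formation, was at 3658, 4067 and 4593 CPM. Aldoc, the brain aldolase, was at 2008, 3374 and 6227 CPM, and replicate 3 was 3.10 times replicate 1. Snap25, a SNARE protein of vesicle fusion, was at 4460, 3576 and 3116 CPM. Hspa8, Ckb, Psap and Pkm, a chaperone, the brain creatine kinase, the saposin precursor and a pyruvate kinase, were also among the first 10, with means from 2437 to 3216 CPM. Together the first 10 genes took 3.69%, 3.31% and 4.17% of counts, and 933, 1033 and 960 genes made up 50% of each library. The abundance was thus spread over many genes in every library. Adcy1, a calmodulin-stimulated adenylyl cyclase, and Mbp, a myelin protein, were among the first 20 but were low in 1 library. Adcy1 was at 2819, 2639 and 965 CPM and Mbp at 2295, 2835 and 1225 CPM, each lowest in replicate 3.

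**Figure D1:**
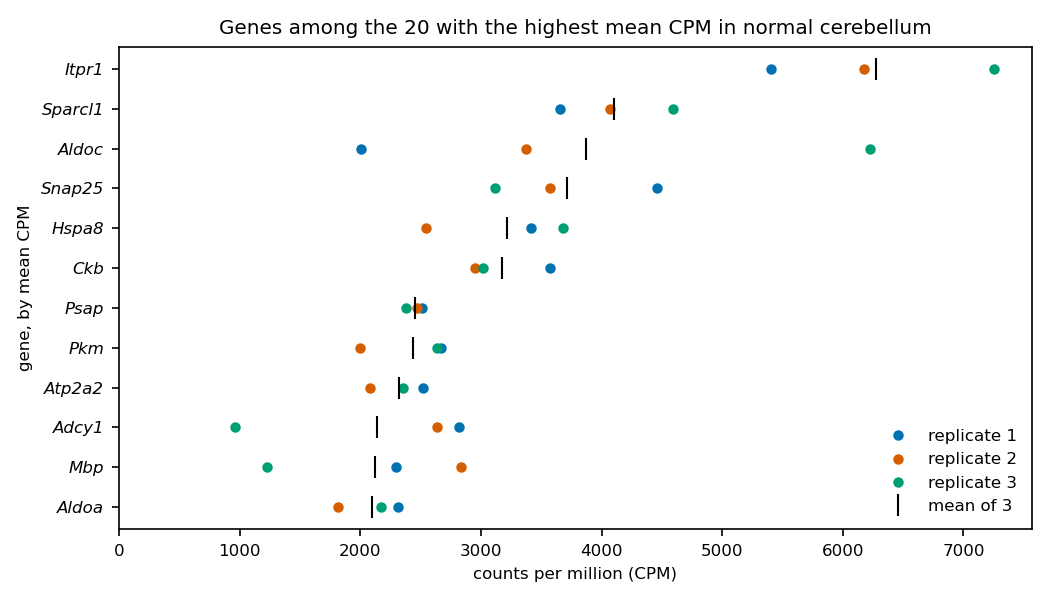
CPM (x axis, linear from 0) of the genes named in the text among the 20 with the highest mean CPM (y axis) in the 3 cerebellum libraries, with 1 coloured point per replicate and a black tick at the mean of 3. Itpr1 is highest at 5403 to 7254 CPM, and Aldoc and Adcy1 show the widest separation of replicate 3 from the others.

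Per kilobase the order changed, because the 18319 bases of merged Itpr1 exons no longer raised its place, which became 64th. Sparcl1 led with 1246, 1385 and 1564 CPM/kb. Aldoc followed with 615, 1034 and 1908 CPM/kb. Pvalb, the calcium buffer of Purkinje cells and molecular layer interneurons, was at 1088, 894 and 1043 CPM/kb. Apoe, the lipid carrier of astrocytes, was at 931, 893 and 1005 CPM/kb. Bc1, a noncoding RNA found in dendrites, was at 1193, 981 and 584 CPM/kb and so differed between libraries more than Pvalb or Apoe did. The ranges of Pvalb, Apoe and Bc1 overlapped, as did those of Sparcl1 and Aldoc.

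Among the lists of cell type markers, granule neuron, Purkinje cell, Bergmann glia and astrocyte genes had the highest medians in every library. The median of the 22 granule neuron genes was 78.8, 81.9 and 63.2 CPM/kb in replicates 1, 2 and 3. The median of the 24 Purkinje cell genes was 44.5, 50.3 and 48.6 CPM/kb. That of the 12 Bergmann glia genes was 64.5, 68.3 and 97.3 CPM/kb. These 3 medians lay well above the median gene in every library. The 15 astrocyte genes had a median of 69.7, 70.0 and 96.1 CPM/kb, and the 15 oligodendrocyte genes one of 31.9, 35.2 and 16.4 CPM/kb. The molecular layer interneuron median was 11.7, 18.0 and 21.9 CPM/kb over 14 genes, above the oligodendrocyte median in replicate 3 and below it in the other libraries. Microglia at 6.46, 8.11 and 7.82 CPM/kb and endothelium at 5.92, 6.64 and 5.70 CPM/kb lay close to the median gene. The lists differ in how specific and how abundant their genes are, so these medians do not measure shares of cells.

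**Figure D2:**
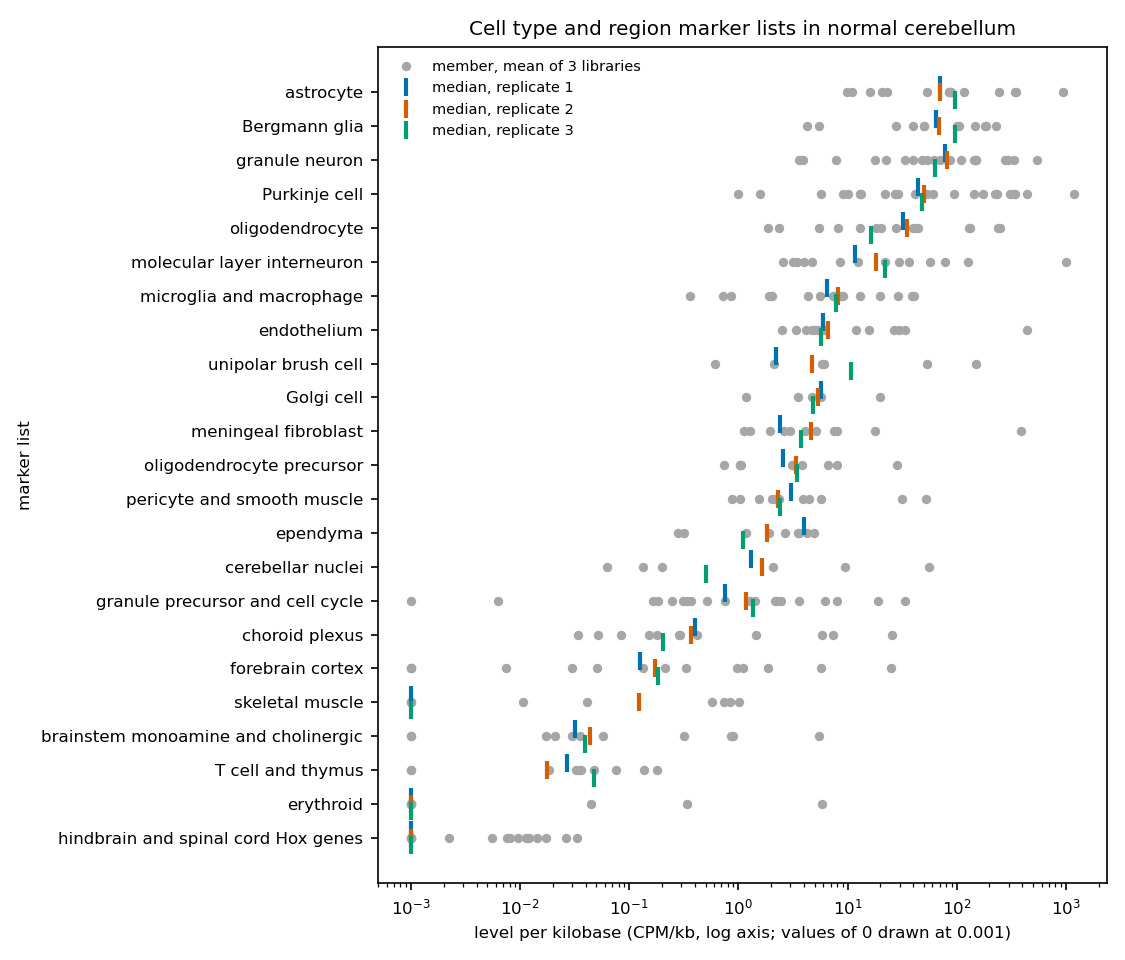
Level per kilobase (x axis, CPM/kb, log axis with values of 0 drawn at 0.001) of the members of 23 marker lists (y axis), with a grey point for each member's mean over 3 libraries and a coloured tick for the list median in each replicate. Astrocyte, Bergmann glia, granule neuron and Purkinje cell lists lie at the top with medians of 44.5 to 97.3 CPM/kb, and the Hox and erythroid medians are 0.

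All 22 granule neuron genes were above 1 CPM in every library, and 16 of the 22 were lowest in replicate 3 (15 with TMM scaling), against 32.2% of all 12995 genes. Cbln1, which bridges parallel fibres to Purkinje cells, was at 379, 358 and 268 CPM/kb. Slc17a7, the vesicular glutamate transporter of parallel fibres, was at 181, 136 and 134 CPM/kb. Chn2, a Rac GTPase-activating protein, was at 155, 154 and 122 CPM/kb. Each was lowest in replicate 3, though the Slc17a7 values of replicates 2 and 3 were nearly equal. Calb2, calretinin, was the least even member with 124, 258 and 65.7 CPM/kb, and it is also found in unipolar brush cells. Kcnd2, a potassium channel of granule neurons, was at 79.9, 67.9 and 36.9 CPM/kb. Pax6, a transcription factor kept from precursor to mature granule neuron, was at 7.20, 8.13 and 8.19 CPM/kb and was not lowest in replicate 3. Barhl1, a homeobox factor of the granule lineage, was at 5.68, 2.28 and 2.72 CPM/kb, with replicate 1 alone high. Atoh1, which specifies granule precursors, had 0 counts in all 3 libraries, with upper 95% limits (exact Poisson, counting error only) of 0.149, 0.170 and 0.174 CPM.

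Purkinje cell genes did not share 1 ordering of the libraries: of 24 genes, 11 were highest in replicate 1, 4 in replicate 2 and 9 in replicate 3. Over all 12995 genes these shares were 25.3%, 42.1% and 32.6%, or 34.3%, 33.3% and 32.4% with TMM scaling. Car8, a carbonic anhydrase-related partner of ITPR1, was at 378, 344 and 280 CPM/kb. Calb1, the calcium buffer calbindin, was at 331, 274 and 326 CPM/kb. Pcp4, a calmodulin regulator, was at 354, 452 and 517 CPM/kb. These common Purkinje genes varied by less than 1.5-fold between libraries. Lhx1, Lhx5 and Skor2, transcription factors of the Purkinje lineage, stayed between 5.03 and 11.2 CPM/kb, and Foxp2 was at 0.854, 1.03 and 1.10 CPM/kb.

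The genes that follow the zebrin stripes had opposite orders of the libraries. Aldoc, zebrin II itself, is also an astrocyte gene. Slc1a6, the glutamate transporter EAAT4 of zebrin-positive Purkinje cells, was at 260, 292 and 580 CPM. Plcb3, the phospholipase of zebrin-positive cells, was at 45.8, 119 and 115 CPM. Aldoc and Slc1a6 were highest in replicate 3, and all 3 genes were lowest in replicate 1. Plcb4, the phospholipase of zebrin-negative cells, was at 297, 230 and 202 CPM. Ebf2, a transcription factor of zebrin-negative cells, was at 17.8, 10.2 and 5.15 CPM. Both were highest in replicate 1 and lowest in replicate 3, the reverse of Aldoc and Slc1a6. The ratio of Plcb3 to Plcb4 per kilobase was 0.198, 0.668 and 0.733. The ratio of Slc1a6 to Pcp2 was 1.09, 1.74 and 2.91, and is uncertain because Pcp2 shares 51.5% of its merged exons with Pet100. Grouping these 5 genes was done after their values had been seen, and their spread was not tested.

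Inhibitory interneuron genes were lowest in replicate 1 in 11 of 14 members, against 41.0% of all 12995 genes. With TMM scaling they were lowest there in 9 of 14, against 31.9%. Gad1, the GABA-synthesising enzyme, was at 101, 124 and 153 CPM/kb. Kit, a receptor of molecular layer interneurons, was at 24.8, 43.5 and 40.4 CPM/kb, and Prkcd, a protein kinase, was at 14.1, 22.1 and 29.8 CPM/kb. Slc32a1, the vesicular GABA transporter, was more even at 75.2, 77.3 and 84.5 CPM/kb. Pvalb, also on this list, was instead highest in replicate 1, at 1088, 894 and 1043 CPM/kb. The summed level of the 14 genes was 1402, 1308 and 1480 CPM/kb, lowest in replicate 2. Golgi cell genes were lower: Lgi2, a secreted synaptic protein, was at 19.9, 22.5 and 17.4 CPM/kb. Slc6a5, the glycine transporter of glycinergic terminals, was at 1.21, 1.44 and 0.860 CPM/kb, and Sst, somatostatin, at 6.10, 2.74 and 1.70 CPM/kb.

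Of the 6 unipolar brush cell genes, 4 were highest in replicate 3 (32.6% of all 12995 genes) and 2 in replicate 2 (42.1%). Eomes, their defining transcription factor, was at 3.89, 4.29 and 9.93 CPM/kb. Otx2, a homeobox factor of posterior granule neurons and the choroid plexus, was at 0.516, 5.14 and 11.8 CPM/kb. Sln, sarcolipin, was at 0.337, 1.36 and 4.66 CPM/kb, and Lmx1a, a rhombic lip factor, was at 0.154, 0.595 and 1.07 CPM/kb. These 4 were lowest in replicate 1, while the other 2 members, Calb2 among them, were highest in replicate 2 and lowest in replicate 3. The 6 cerebellar nuclei genes had a median of 1.30, 1.64 and 0.502 CPM/kb. Their summed level was 84.2, 67.5 and 52.4 CPM/kb, so the list was not low in every member. All 4 members counted were lowest in replicate 3, against 32.2% of all 12995 genes. Slc17a6, the glutamate transporter of nuclear projection neurons, was at 2.39, 3.00 and 0.832 CPM/kb, and Spp1, osteopontin, was at 8.77, 14.3 and 5.51 CPM/kb.

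Bergmann glia genes were highest in replicate 3 in 11 of 12 members, against 32.6% of all 12995 genes. Gdf10, a growth factor that defines these cells, was at 36.6, 39.99 and 75.1 CPM/kb. Hopx, a small homeodomain protein, was at 94.9, 91.9 and 127 CPM/kb. Fabp7, a fatty acid carrier of radial glia that remains in Bergmann glia, was at 82.5, 98.4 and 120 CPM/kb. The exception was Slc1a3, the glutamate transporter GLAST, at 189, 257 and 236 CPM/kb. Astrocyte genes were highest in replicate 3 in 9 of 15 members. Gfap, the intermediate filament of fibrous astrocytes, was at 66.7, 55.05 and 137 CPM/kb. S100b, a calcium-binding protein of glia, was instead highest in replicate 2, at 259, 457 and 308 CPM/kb.

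Oligodendrocyte genes were highest in replicate 2 in 12 of 15, against 42.1% of all 12995 genes (11 of 15 and 33.3% with TMM scaling). They were lowest in replicate 3 in 13 of 15, against 32.2% of all 12995 genes. Mbp, a main myelin protein, was at 271, 335 and 145 CPM/kb. Mog, a surface myelin glycoprotein, was at 31.9, 35.2 and 16.4 CPM/kb. Cnp, an enzyme of the myelin cytoplasm, was nearly level at 127, 134 and 131 CPM/kb. Myrf, the transcription factor of myelination, was at 5.39, 5.15 and 5.96 CPM/kb, so these 2 genes did not follow the others. Precursor genes were lower: Olig1, a bHLH factor of the whole lineage, was at 28.6, 30.1 and 25.9 CPM/kb, and Pdgfra, the receptor of the precursors, was at 2.45, 3.83 and 3.11 CPM/kb.

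Immune, vascular and lining cells were detected at low to middle levels. Of 17 microglia and macrophage genes, 15 were lowest in replicate 1, with either scaling, against 41.0% of all 12995 genes (31.9% with TMM scaling). C1qa, a complement subunit, was at 26.0, 28.5 and 33.4 CPM/kb. Tmem119, a marker of resident microglia, was at 5.33, 5.74 and 5.62 CPM/kb. Lyz2, a lysozyme of macrophages and other myeloid cells, was at 0.951, 8.90 and 3.05 CPM/kb, a far wider spread than that of Tmem119. Endothelial genes were even, with Cldn5, the tight junction protein of the blood-brain barrier, at 35.0, 33.9 and 31.9 CPM/kb. All 11 meningeal fibroblast genes were lowest in replicate 1, and 9 of the 11 were highest in replicate 2, with either scaling. Of all 12995 genes, 42.1% were highest in replicate 2, or 33.3% with TMM scaling. Ptgds, the prostaglandin D synthase of the meninges, which oligodendrocytes also express, was at 228, 1301 and 412 CPM. Slc22a6, an organic anion transporter of the meninges, was at 0.881, 3.75 and 1.16 CPM/kb. Of 9 ependymal genes, 6 were highest in replicate 1, 1 in replicate 2 and 2 in replicate 3. The share of all 12995 genes highest in replicate 1 was 25.3%, or 34.3% with TMM scaling. Foxj1, the factor of motile cilia, was at 18.6, 9.33 and 5.53 CPM, and Tmem212 was at 9.02, 3.53 and 2.24 CPM/kb. The 12 choroid plexus genes had a median of 0.400, 0.368 and 0.204 CPM/kb. Ttr, transthyretin, was at 2.62, 6.97 and 12.4 CPM/kb, above the median gene in replicates 2 and 3. Folr1, a folate receptor, was at 0.492, 0.2001 and 0.165 CPM/kb.

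Genes of other regions were read beside the cortex wording of the protocol. Of the 14 forebrain cortex genes, 7 had at least 1 CPM and 3 at least 10 CPM in all 3 libraries. Emx1, Emx2 and Fezf2, factors that define the cerebral cortex, had 0 counts in all 3 libraries. The list median was 0.126, 0.173 and 0.183 CPM/kb, and the highest member was Bhlhe22, a bHLH factor expressed also outside the cortex, at 19.8, 26.3 and 29.1 CPM/kb. None of 15 Hox genes, which mark the hindbrain behind the cerebellum and the spinal cord, reached 1 CPM. Chat and Phox2a, genes of cholinergic and noradrenergic neurons, had 0 counts. Th, tyrosine hydroxylase, was at 0.512, 3.30 and 12.7 CPM/kb and so stood above the rest of the monoamine list in replicates 2 and 3. Cd3e of T cells and Foxn1, the gene mutated in nude mice, had 0 counts in every library, though Foxn1 is a thymus and skin gene and its 0 checks nothing of the genotype here.

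Receptor, channel and transporter families differed in how far 1 member led. In 15 of 22 gene lists grouped by family or role the same gene led per kilobase in all 3 libraries. With the longest transcript as the length, the gene with the highest mean by merged exons led all 3 libraries in 17 of 22. Among 24 GABA-A and glycine receptor genes, Gabra6 held 43.5%, 39.7% and 33.2% of the summed CPM/kb. Gabrd, the delta subunit of extrasynaptic granule neuron receptors, was at 96.3, 95.9 and 69.3 CPM/kb. Gabra6 was 3.66, 3.43 and 3.07 times Gabrd, so their ranges did not overlap but their ratio varied between libraries. Gabra5, a hippocampal subunit, was at 0.163, 0.232 and 0.0954 CPM/kb, near the lower end of the family.

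Ionotropic glutamate receptor paralogues differed widely in level in the deposited counts. Gria1, an AMPA receptor subunit of Bergmann glia and Purkinje cells, was at 161, 166 and 215 CPM/kb. Gria4, an AMPA subunit of Bergmann glia and granule neurons, was at 136, 143 and 161 CPM/kb. Gria2, the subunit that makes AMPA receptors impermeable to calcium, was at 8.38, 10.1 and 10.4 CPM/kb. Gria1 was thus 19.2, 16.5 and 20.6 times Gria2 in the deposited counts. Grin2c, the NMDA receptor subunit of mature granule neurons, was at 37.8, 35.6 and 27.7 CPM/kb. Grin2a was at 1.05, 1.16 and 0.772 CPM/kb and Grin2b, the subunit of immature neurons, at 0.0617, 0.0832 and 0.0761 CPM/kb. Grin1, the obligatory subunit, was at 30.5, 25.6 and 27.1 CPM/kb, 0.807, 0.721 and 0.979 times Grin2c with merged exons but 1.78, 1.59 and 2.16 times Grin2c with the longest transcript, so their order rests on the length used.

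Metabotropic receptors, their scaffolds and the cerebellins followed. Grm4, the presynaptic receptor of parallel fibres, was at 91.6, 102 and 82.6 CPM/kb. Homer3, a postsynaptic scaffold of Purkinje cells, was at 64.7, 64.3 and 54.8 CPM/kb, 23.1, 20.5 and 22.8 times Homer1. Homer3 shares 25.4% of its merged exons with Ddx49 on the opposite strand, so this ratio is uncertain. Among cerebellins, Cbln1 was 1.42, 1.02 and 1.25 times Cbln3, with overlapping ranges. Cbln2 and Cbln4, cerebellins of other brain regions, were at most 0.301 CPM/kb in any library.

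**Figure D3:**
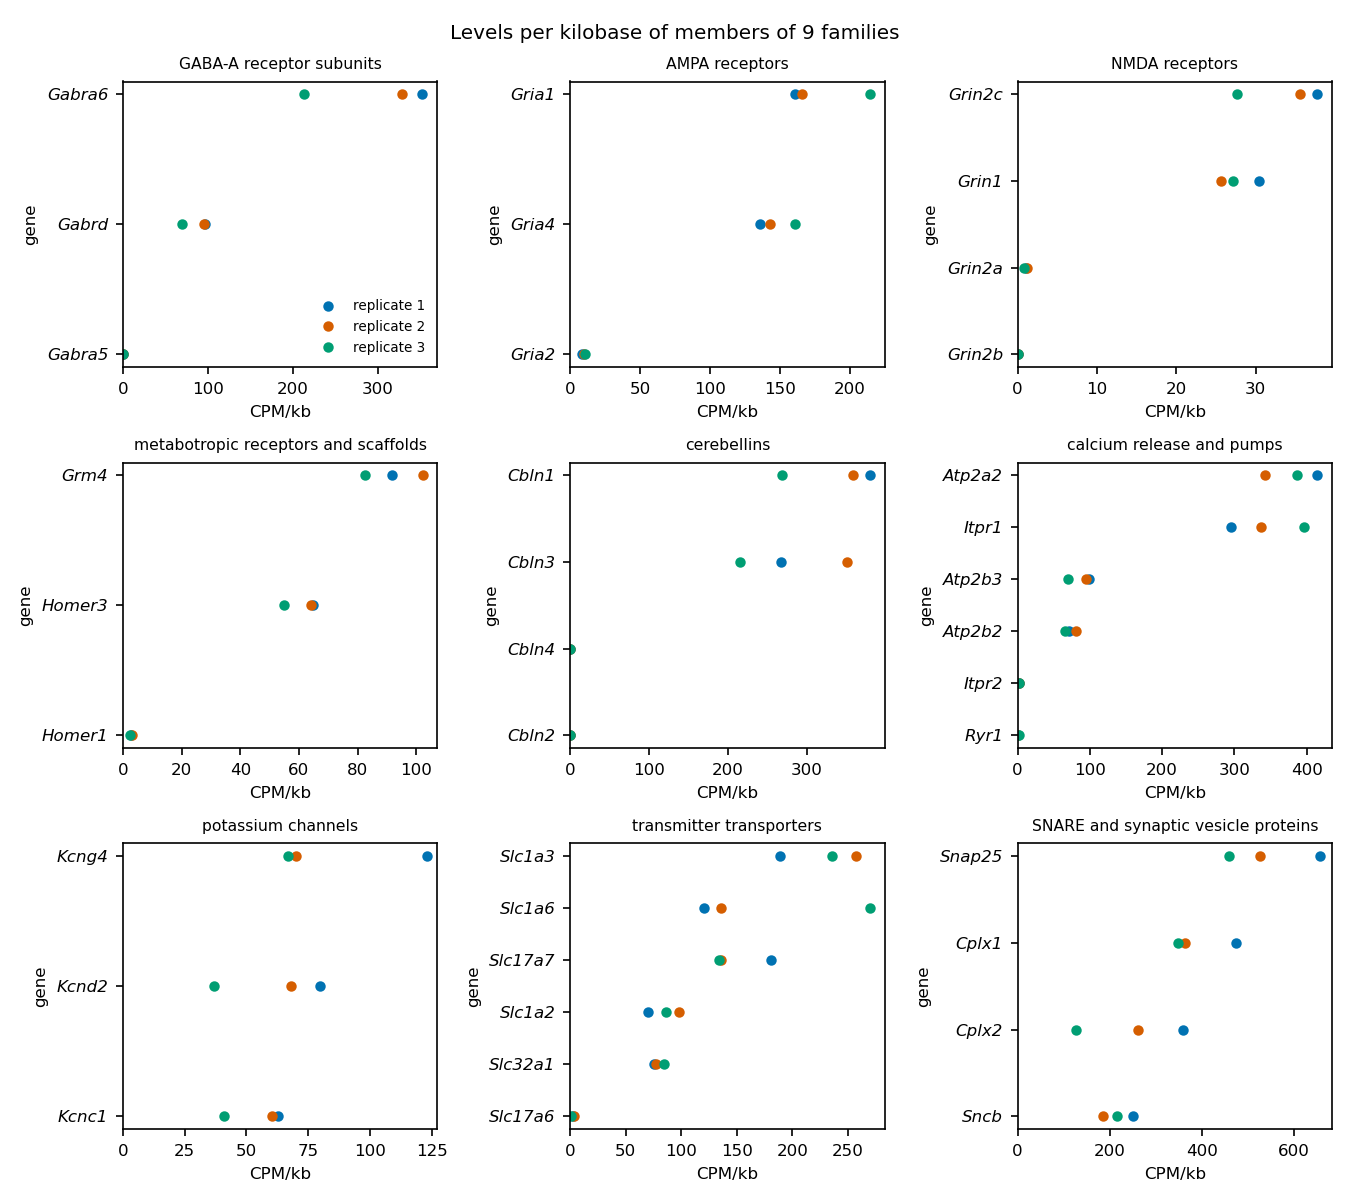
Level per kilobase (x axes, CPM/kb, linear from 0) of the members named in the text (y axes) of 9 gene families, with 1 coloured point per replicate. Gabra6, Gria1 and Snap25 are highest in their panels in all 3 replicates, and Cbln1 with Cbln3 and Atp2a2 with Itpr1 overlap.

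Calcium handling was led by buffers, the reticulum pump and 1 release channel. Calm2, a calmodulin gene, was at 1147, 1017 and 874 CPM/kb, close to Pvalb. Atp2a2, the SERCA2 pump that fills the reticulum, was at 414, 342 and 387 CPM/kb and overlapped Itpr1 at 295, 337 and 396 CPM/kb. Itpr2, a paralogue, was at 2.10, 1.66 and 2.01 CPM/kb, and Ryr1, a ryanodine receptor of muscle and Purkinje cells, was at 0.898, 0.816 and 1.26 CPM/kb. Itpr1 was therefore 140, 203 and 197 times Itpr2. Atp2b3 and Atp2b2, plasma membrane calcium pumps, were at 98.2, 94.95 and 70.2 CPM/kb and at 70.8, 80.3 and 65.0 CPM/kb. Vsnl1, a neuronal calcium sensor, was at 464, 318 and 227 CPM/kb, highest in replicate 1 and lowest in replicate 3.

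Several voltage-gated channel genes were lowest in replicate 3. Kcnc1, the Kv3.1 channel of granule neurons, was at 62.6, 60.2 and 40.8 CPM/kb. Kcng4, a modifier subunit, was at 123, 69.9 and 66.7 CPM/kb. Both were highest in replicate 1 and lowest in replicate 3. Of 35 potassium channel genes, 21 were lowest in replicate 3 and 12 in replicate 1. Over all 12995 genes these shares were 32.2% and 41.0%. Scn4b, the beta4 subunit of resurgent current, was at 28.4, 24.7 and 9.89 CPM/kb, whereas Scn8a, the Nav1.6 pore, was at 21.97, 20.7 and 16.9 CPM/kb. Cacna1g, a T-type calcium channel, was at 45.7, 48.2 and 52.0 CPM/kb, and Cacna1a, the P/Q-type channel of Purkinje cells, was at 25.8, 31.0 and 22.8 CPM/kb. Their ranges did not overlap.

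Transmitter transporters and vesicle genes were compared between paralogues. Slc1a3 was 2.72, 2.62 and 2.72 times Slc1a2, the GLT-1 transporter, a ratio that hardly varied. Slc17a7 was 75.7, 45.4 and 162 times Slc17a6, a ratio that rests on the low and uneven Slc17a6. Snap25 led the 33 vesicle genes at 657, 527 and 459 CPM/kb, with 17.8%, 16.2% and 14.8% of their summed CPM/kb. Cplx1, a complexin, was at 475, 365 and 349 CPM/kb, and Cplx2, its paralogue, was at 359, 261 and 126 CPM/kb. Sncb, beta-synuclein, was at 251, 186 and 215 CPM/kb. Cplx1 and Cplx2 were highest in replicate 1 and lowest in replicate 3.

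Transcription factors, metabolic isoforms and the cytoskeleton completed the families. Zic2, a zinc finger factor of the granule lineage, was at 105, 130 and 94.0 CPM/kb and Zic1 at 77.2, 87.8 and 82.3 CPM/kb. The other 3 Zic genes stayed between 3.21 and 5.84 CPM/kb. Aldoc was 0.775, 1.66 and 2.56 times Aldoa, the ubiquitous aldolase, with merged exons and 0.483, 1.03 and 1.59 times with the longest transcript. The leading aldolase thus differed between replicates 1 and 3, while in replicate 2 the lead of Aldoc rests on the length used. Tubb4a, a neuronal and oligodendrocyte beta-tubulin, was at 829, 639 and 780 CPM/kb and 7.28, 7.62 and 7.499 times Tubb3. Among immediate early genes, Jund held 66.6%, 65.7% and 58.5% of the summed CPM/kb. Fos, an early response factor, was at 3.19, 3.45 and 23.2 CPM, while Egr1, another, was at 42.4, 32.1 and 17.7 CPM, so the family did not move as 1 group.

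Most genes were close between libraries and a small set was not. Among 11141 genes with a mean of at least 5 CPM, the median ratio of the highest to the lowest library was 1.21. The ratio passed 2 in 416 genes (3.73%) and 4 in 69 genes (0.619%). Of the 69 genes, 36 were highest in replicate 3, 23 in replicate 2 and 10 in replicate 1, and 48 were lowest in replicate 1. Over the 12995 genes, which were kept by a different filter (at least 1 CPM in all 3 libraries), these shares were 32.6%, 42.1%, 25.3% and 41.0%. Some of the 69 genes, such as Tlx3, are not among the 12995. The counts of the 69 genes were not made with TMM scaling. Tlx3, a homeobox factor of glutamatergic neurons, had the widest ratio, with 0.0404, 9.79 and 7.56 CPM. Syndig1l, a transmembrane protein related to an AMPA receptor regulator, was at 2.78, 33.2 and 98.0 CPM. Mab21l2 was at 1.90, 9.74 and 35.1 CPM, but shares 36.0% of its merged exons with Lrba on the opposite strand. Inhbb, an activin subunit, was at 3.79, 25.3 and 63.4 CPM. Th, Otx2 and Sp5, a zinc finger target of WNT signalling, were ordered in the same way, with Sp5 at 3.95, 11.7 and 35.7 CPM. Tuba1c, an alpha-tubulin, was at 0.161, 0.505 and 19.3 CPM, so that replicate 3 alone was high. Gdpd3, a phosphodiesterase, was low in replicate 2 alone, at 11.5, 0.138 and 10.2 CPM. Ostn, Necab2 and Gprin3 were highest in replicate 3 and lowest in replicate 1, whereas Morf4l1-ps1, a pseudogene, was highest in replicate 2 and lowest in replicate 1. Its counts may be split with those of its parent gene.

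**Figure D4:**
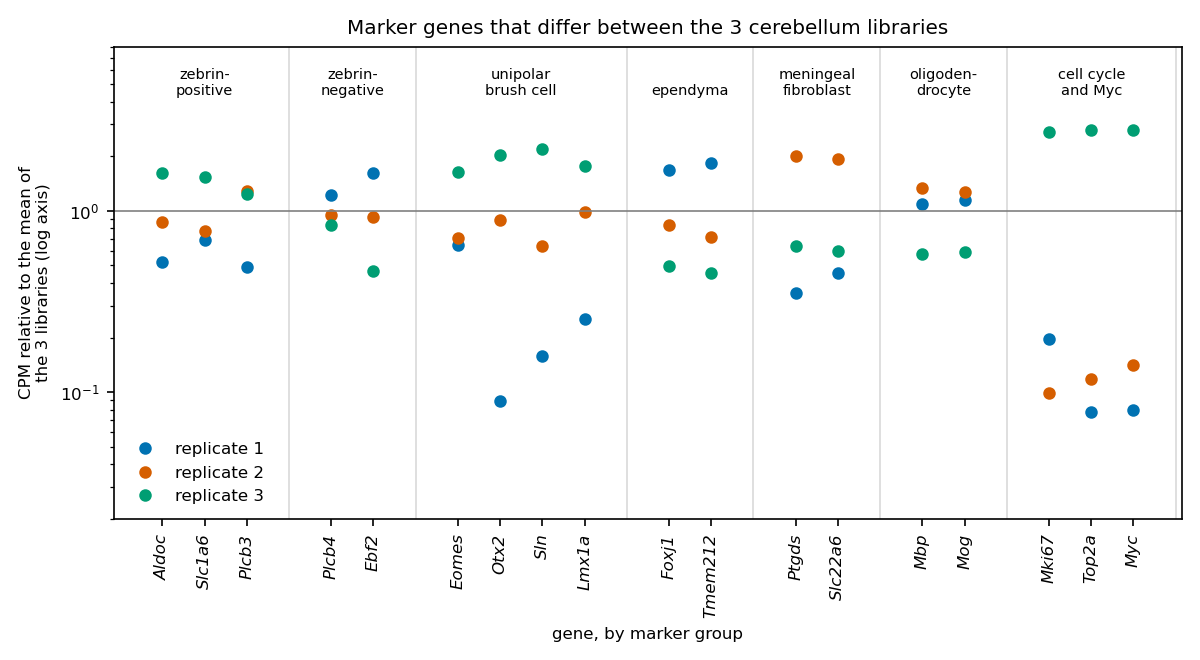
CPM of marker genes divided by each gene's mean over the 3 libraries (y axis, log axis, line at 1), grouped by marker list (x axis), with 1 coloured point per replicate. Replicate 3 is highest for Aldoc, Slc1a6, 4 of the 6 unipolar brush cell genes, Mki67, Top2a and Myc, and lowest for Mbp and Mog, while replicate 1 is highest for Foxj1 and Tmem212 and replicate 2 for Ptgds and Slc22a6; the genes shown are selected members that differ and were chosen after their values had been seen.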

How the data were processed

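RNA was sequenced from 3 libraries labelled normal cerebellum, and the 6 columns of the other groups were not used. The authors deposited raw counts per gene symbol. Per the submitters' processing notes, bcl2fastq, TopHat and edgeR were used with the mm10 build; for the counter, annotation and strand setting nothing is given in the sources used here. The counts were divided by each library total to give CPM, and by the merged exon length from GENCODE vM21 to give CPM/kb. Lengths were found for 24070 of 24444 symbols, 23695 by symbol and 375 by synonym. Sequences are from RefSeq. Some genes that the naming rule selects are not reported here. The 15 listed mitochondrial genome genes were not analysed here and enter no library total. edgeR 4.0.16 in R 4.3.3 gave TMM factors and the common dispersion of an intercept-only model over genes with at least 1 CPM in all 3 libraries. This step was tested on simulated data, where true coefficients of 10%, 20% and 30% gave 9.94%, 19.8% and 29.8%, or 14.8%, 22.4% and 31.5% where 200 genes were made to differ in 1 library. Intervals and floors cover counting error only. Nothing says that the libraries came from separate animals beyond the words biological replicates, so the spread between them may be partly technical.

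The members and the 46 gene lists were chosen with earlier results of these data known, and 8 further lists were added after the values had been seen. Named genes were the 5 tissue markers, the 20 highest by mean CPM and by CPM/kb, up to 6 of the highest and 3 of the lowest of each list, the immediate early, sex-linked and engineered genes, and the 15 genes with the widest ratio between libraries at a mean of at least 5 CPM. Other genes in the text were named after their values had been seen. Replicate numbers follow accession order and pair nothing. Alternatives were TMM and RLE factors, longest transcripts, other thresholds, thinned counts and leaving out each library.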

Additional observations from a re-analysis of the deposited data

How the results depend on the processing

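Under TMM scaling the library with the most highest members changed in 4 of 37 lists of at least 5 counted members (endothelium, GABA-A and glycine receptors, NMDA and delta receptors, cerebellins), and that with the most lowest members in 3 of 37 (Bergmann glia, AMPA and kainate receptors, apolipoproteins). With the longest transcript as the length the leading gene became Grin1 in place of Grin2c and Itpr1 in place of Atp2a2. With the longest transcript as the length, the mean of the list median over libraries became 87.8 CPM/kb for granule neuron, 60.2 for Purkinje cell, 40.8 for oligodendrocyte and 0.197 for forebrain cortex genes, against 74.6, 47.8, 27.9 and 0.161 with merged exons. Without members below 1 CPM the forebrain median was 1.10 CPM/kb. The biological coefficient of variation was 16.1%, 13.3% for genes of at least 10 CPM and 18.6% with no filter, and 15.5% to 16.9% when 1 library was left out. Under TMM 0 of 657 gene levels and 0 of 53 list medians moved by more than 1 SD. The TMM factors of 0.974, 1.03 and 0.9998 hardly change a mean over 3 libraries, so these counts could show little else. With the longest transcript 265 of 657 gene levels moved by more than 1 SD, by construction, since levels were 1 to 4.07 times those with merged exons. The gene with the highest mean CPM/kb over 3 libraries led its family in every library used in 15 of 22 families. With 1 library left out this number was 16 to 20, fewer libraries being an easier condition. The number of genes detected was 13061 to 13169 with 1 library left out. The library totals used here, and so every CPM, include no mitochondrial genome genes, so the share without them could not be run as an alternative. No paired analysis was possible because there is 1 group. With 3 libraries no difference between libraries or genes was tested.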

Other observations

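Several gene groups outside the comparisons above were looked at after the values had been seen and are given as values only. Calcium-dependent kinases were led by Camk4, a nuclear kinase of granule neurons, at 347, 343 and 190 CPM/kb in replicates 1, 2 and 3. Camk2b, the beta subunit, was at 130, 93.6 and 84.2 CPM/kb, whereas Camk2a, the alpha subunit that leads in the forebrain, was at 19.9, 22.7 and 21.8 CPM/kb. Camk2b was thus 6.54, 4.11 and 3.85 times Camk2a. Penk, the enkephalin precursor, was at 106, 78.5 and 92.6 CPM/kb, and Cck, cholecystokinin, was at 66.4, 23.7 and 18.0 CPM/kb, with replicate 1 alone high. En2, an engrailed homeobox factor of the midbrain and cerebellum, led the patterning factors at 25.6, 34.0 and 23.8 CPM/kb. En1, its paralogue, was at 12.4, 2.11 and 10.4 CPM, lowest in replicate 2.

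Some genes with near-identical copies were at or near 0. Eno1, a glycolytic enolase, had 2, 2 and 0 counts, while its near-copy Eno1b was at 147, 109 and 137 CPM. The haemoglobin genes Hba-a1 and Hbb-bs had 0 counts in all 3 libraries, although Alas2, the haem synthesis enzyme of red cell precursors, was at 9.001, 3.81 and 4.62 CPM/kb. Alas2 shares 12.9% of its merged exons with Apex2 on the opposite strand, so its level is uncertain. A 0 for a gene with a near-identical copy is uncertain in these counts, because the handling of reads that match several places is not stated in the labels.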
